A study of Mus musculus with 6 samples.

Results

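The Hedgehog pathway and the related Zic transcription factors were examined in 2 mouse malignant mesothelioma cell lines, AC29 and AB1. The 9 genes were Zic1, Zic4, Gli1, Gli2, Gli3, Ptch1, Smo, Sufu and Hhip, out of 18193 genes represented by a probe set with a single gene symbol. They were chosen by name and with their AC29 and AB1 values known, so their levels and differences are a description without a test. Each gene was read from its probe set of highest average signal on the 6 arrays, and its other probe sets served as a check. AC29 is a line from female CBA mice aged 6 to 8 weeks and was used at passage 60; AB1 is a line from female BALB/c mice of the same age and was used at passage 40. Both were induced with asbestos and grown, without any treatment, in medium with 5% serum. RNA came from 3 flasks of each line at 80% confluency, with 1 Affymetrix 3′ expression array per flask. The labels do not say whether the flasks were separate cultures, so the p-values given below measure the spread between flasks. Differences of line, of strain, of passage and of any batch coincide here and cannot be told apart.

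Hedgehog ligands are secreted, lipid-modified proteins that bind the membrane protein Ptch1. Without ligand, Ptch1 holds back the transducer Smo; with ligand, Smo accumulates in the primary cilium and the Gli transcription factors, which are otherwise restrained by Sufu or trimmed into repressors, turn on their targets. Gli1, Ptch1 and Hhip are themselves targets in many tissues, and for that reason are often used to read out pathway activity. Zic proteins share the zinc finger type of the Gli proteins and are best known from the neural tube, cerebellum and somites.

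The deposited values are log2 RMA intensities, in which 1 unit is a 2-fold difference, and the array medians lay between 5.76 and 5.81. A floor of 6.07 was set at the 95th percentile of 86 probe sets for olfactory, vomeronasal and taste receptors; the 99th percentile was 7.23. A fold against a line with no array above the floor is given as a lower bound computed at the floor. Pearson's r across genes was 0.995 to 0.997 between AC29 arrays, 0.997 to 0.998 between AB1 arrays and 0.937 to 0.938 between the lines. AC29 replicate 14 gave the lowest AC29 value for 6 of the 9 genes, against 42.8% of the 10876 genes with a mean above the floor. The 6 were Zic1, Gli2, Gli3, Ptch1, Smo and Sufu. The sets are not alike, as the 9 include Zic4 and Hhip, whose means were under the floor. All 9 measured mesothelial markers were above the floor in AC29 and 5 of 9 in AB1; Wt1, a transcription factor of mesothelium, read 9.59 ± 0.10 in AC29 and 4.77 ± 0.23 in AB1 (SD, n = 3 each). Of 6 macrophage, 4 lymphocyte and 5 endothelial markers, 2, 1 and 1 were above the floor in AC29, and 3, 1 and 1 in AB1. Ptprc, Adgre1 and Itgam of the macrophage list were under the floor on every array and Csf1r was above it on every array. Cd68 was above it in AB1 only, and Cd14 was 3.39-fold higher in AB1 (7.26 ± 0.07 in AC29 and 9.02 ± 0.08 in AB1, SD, n = 3 each, limma adjusted p = 3.14e-07). The summed linear intensity of that list was 348 to 371 in AC29 and 732 to 782 in AB1, and its part in the results was not tested. In these bulk samples, fewer cells with a transcript and less of it per cell cannot be told apart.

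Start-site windows are printed for the genes the results turn on. These are the neighbours Zic1 and Zic4, of which only Zic1 was measured above the floor, and Gli2 and Ptch1. On their brightest probe sets, Gli2 and Ptch1 were at least 4-fold higher in AC29. Each window runs from 250 bases before to 50 bases after an annotated start, on the strand of the gene, in RefSeq's sequence of GRCm38.p6. Of the 9 genes, 8 had an entry; Gli1 was the other. The capital at the start of the last 50 bases is the annotated first base, and a run of capitals marks the core of a Gli motif.
Zic1, chr9:91365719-91366018, minus strand: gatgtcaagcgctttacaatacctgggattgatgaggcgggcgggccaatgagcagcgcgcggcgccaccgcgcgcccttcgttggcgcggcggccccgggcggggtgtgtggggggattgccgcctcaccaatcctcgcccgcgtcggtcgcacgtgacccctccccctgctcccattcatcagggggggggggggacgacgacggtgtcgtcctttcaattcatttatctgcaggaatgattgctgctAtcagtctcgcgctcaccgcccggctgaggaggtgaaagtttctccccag
Zic4, chr9:91368722-91369021, plus strand: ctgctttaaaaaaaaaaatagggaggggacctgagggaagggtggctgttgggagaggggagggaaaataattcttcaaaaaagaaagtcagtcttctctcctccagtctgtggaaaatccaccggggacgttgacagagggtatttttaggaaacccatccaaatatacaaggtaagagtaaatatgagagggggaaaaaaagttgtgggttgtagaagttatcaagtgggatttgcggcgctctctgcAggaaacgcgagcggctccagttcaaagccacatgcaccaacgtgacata
Gli2, chr1:119053570-119053869, minus strand: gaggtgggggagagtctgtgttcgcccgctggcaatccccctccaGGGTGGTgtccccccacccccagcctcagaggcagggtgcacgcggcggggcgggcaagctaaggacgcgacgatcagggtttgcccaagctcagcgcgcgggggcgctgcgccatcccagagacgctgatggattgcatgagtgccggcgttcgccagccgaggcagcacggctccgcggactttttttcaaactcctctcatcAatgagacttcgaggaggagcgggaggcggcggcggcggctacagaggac
Ptch1, chr13:63565686-63565985, minus strand: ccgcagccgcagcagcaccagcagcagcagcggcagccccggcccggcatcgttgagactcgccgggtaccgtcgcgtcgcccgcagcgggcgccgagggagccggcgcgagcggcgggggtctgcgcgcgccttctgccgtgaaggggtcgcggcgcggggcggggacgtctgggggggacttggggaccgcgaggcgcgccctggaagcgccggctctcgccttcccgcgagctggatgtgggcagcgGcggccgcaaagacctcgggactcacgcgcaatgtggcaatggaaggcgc

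The consensus letters of Gli binding, GACCACCCA, were searched on both strands. They occur in 0 of the 8 windows and in 0.253% of all 32851 windows of this length. The 7-letter core ACCACCC, which lies within the longer motif, occurs in 4.61% of all windows and in 1 of the 8, that of Gli2, where it reads GGGTGGT from base 46 of the window. The windows differ in base composition: C followed by G occurs 47 times in that of Ptch1, 31 times in that of Zic1, 28 times in that of Gli2 and 8 times in that of Zic4, against a median of 7 over all windows. These counts describe 300 bases a gene and say nothing of sites outside them.

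In AC29 the arrays read higher for Zic1, Gli1, Gli2 and Ptch1 by at least 2-fold and without overlap between the lines, which is the size rule used for these genes. Of the other 5, Gli3, Smo and Sufu were within 2-fold, and Zic4 and Hhip were under the floor on every array, so that no fold is given for them. The count of 4 of 9 higher in AC29 and 0 of 9 higher in AB1 stands beside 5.12% and 5.82% of all 18193 genes; since the genes were chosen on this contrast, nothing is read from it. Arrays of the lines did not overlap for 8 of the 9 genes, of which 6 were higher in AC29 and 2 in AB1, and this held for 50.1% of all genes. Of the 9, 5 were above the floor in both lines, 2 in AC29 only, and 2 in neither.

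**Figure D1:**
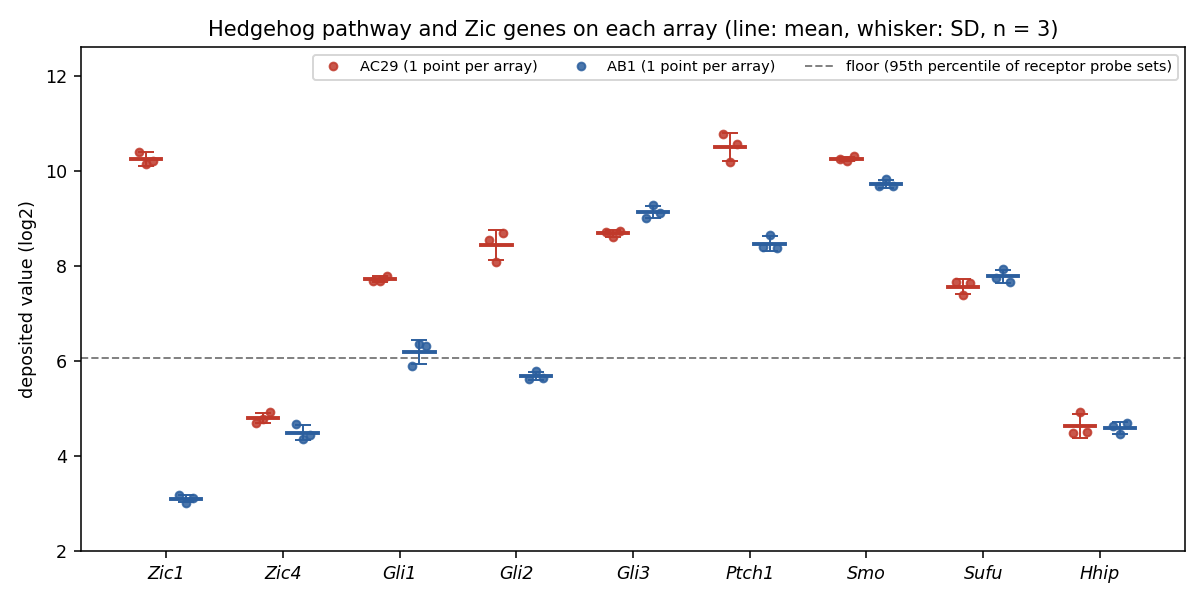
Deposited log2 value (vertical axis) of each of the 9 genes on every array, AC29 in red to the left of AB1 in blue, with the mean as a line, the SD as a whisker (n = 3) and the floor as a dashed line. Zic1 and Gli2 lie above the floor in AC29 only, Zic4 and Hhip lie under it in both lines, and Gli3, Ptch1, Smo and Sufu lie above it on all 6 arrays.

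Zic1 differed most. Its brightest probe set read 10.41, 10.14 and 10.21 on the AC29 arrays, against 3.18, 3.02 and 3.11 on the AB1 arrays. Every AC29 array was far above the floor and every AB1 array far under it, which puts AC29 at least 18.1-fold above AB1 (10.25 ± 0.14 in AC29 and 3.11 ± 0.08 in AB1, SD, n = 3 each). The second Zic1 probe set was dimmer and went the same way, with 7.34, 6.87 and 6.90 in AC29 and 3.32, 2.97 and 2.73 in AB1. Zic1 is a transcription factor of dorsal neural tube and cerebellum.

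Zic4, which lies next to Zic1 in the genome (head to head) and is expressed with it in the developing cerebellum, gave no array above the floor. It read 4.71, 4.78 and 4.93 in AC29 and 4.67, 4.36 and 4.46 in AB1, and its other probe set 3.93 to 4.05 in AC29 and 3.75 to 3.89 in AB1. No level can be given for Zic4 in either line from these probe sets.

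Markers of other tissues were set beside Zic1. Of the 5 measured neural markers, 2 were above the floor in AC29 and 3 in AB1, their summed linear intensity was 240 to 251 in AC29 and 551 to 580 in AB1, and Elavl4 and Syp were under the floor on every array. Sox10 was above it on all 6 arrays (6.72 ± 0.09 in AC29 and 6.78 ± 0.14 in AB1) and Elavl3 on 3 AC29 and 2 AB1 arrays (6.23 ± 0.11 in AC29 and 6.14 ± 0.14 in AB1). The marker called was Sox2, a factor of neural progenitors and other stem cells, which was at 3.12 ± 0.23 in AC29 and 8.36 ± 0.08 in AB1 (SD, n = 3 each), the opposite direction to Zic1. Of the 9 mesothelial markers, 7 were called higher in AC29, the direction of Zic1, beside 5.12% of all genes. Since the lists were chosen with earlier results of these data known, nothing is read from that share. Msln (10.41 ± 0.23 in AC29 and 9.67 ± 0.10 in AB1) and Calb2 (6.58 ± 0.31 in AC29 and 6.43 ± 0.06 in AB1, with overlapping arrays) were not called. The summed linear intensity of the mesothelial list was 33494 to 36713 in AC29 and 6479 to 7503 in AB1. The part of either marker group in the Zic1 difference was not tested.

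The measured protein-coding genes on either side of the Zic pair were also read. Tbc1d2b, which lies before Zic1 and encodes a regulator of Rab proteins, read 8.98, 8.73 and 9.29 in AC29 and 7.46, 7.70 and 7.37 in AB1, 2.81-fold (limma adjusted p = 3.67e-05). After Zic4, and beyond the unmeasured Plscr5, the phospholipid scramblases Plscr1 (10.07 ± 0.09 in AC29 and 8.88 ± 0.05 in AB1, adjusted p = 3.92e-06) and Plscr2 (7.44 ± 0.32 in AC29 and 6.10 ± 0.11 in AB1, adjusted p = 8.66e-05) were higher in AC29 as well. Adamts7, a matrix protease gene beyond Tbc1d2b, read 6.15 ± 0.25 in AC29 and 6.19 ± 0.01 in AB1 and did not pass the call rule (adjusted p = 0.861). Under that rule, an adjusted p under 0.05 in limma over all genes and at least a 2-fold difference, 5.12% of all genes were called toward AC29 and 5.82% toward AB1. Thus 3 of 4 measured neighbours were higher in AC29, and Zic4 between them was under the floor. Adamts7 read near the floor in both lines, so its lack of a call says little. Plscr2 read near the floor in AB1, above it on 2 of 3 arrays.

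**Figure D2:**
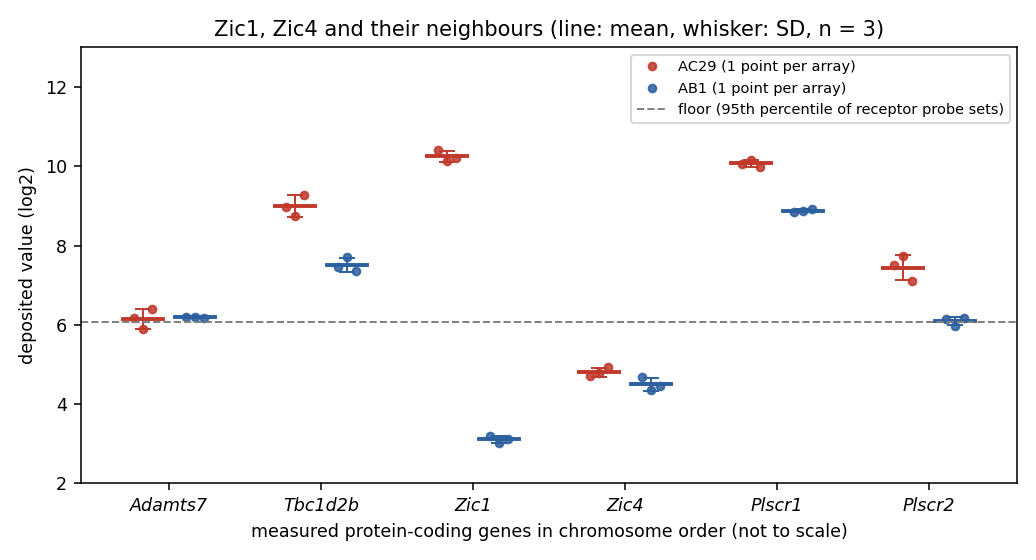
Deposited log2 values (vertical axis) of Zic1, Zic4 and the nearest measured protein-coding genes in chromosome order (horizontal axis, not to scale), AC29 in red to the left of AB1 in blue, with mean, SD (n = 3) and the floor as a dashed line. Tbc1d2b, Zic1, Plscr1 and Plscr2 are higher in AC29, while Zic4 stays under the floor in both lines.

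Of the Gli factors, Gli1 and Gli2 were higher in AC29 and Gli3 was slightly higher in AB1. Gli2, the main activator downstream of Smo, read 8.56, 8.09 and 8.69 in AC29 and 5.62, 5.79 and 5.65 in AB1. All 3 AB1 arrays were under the floor, which puts AC29 at least 5.19-fold above AB1 (8.45 ± 0.32 in AC29 and 5.69 ± 0.09 in AB1, SD, n = 3 each). The brightest Gli2 probe set is of a type that can match more than 1 transcript; the other, almost as bright on average, read 9.88, 8.92 and 9.43 in AC29 and 4.56, 4.92 and 4.55 in AB1, at least 10.1-fold. The platform's annotation gives both probe sets the same sequence record.

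Gli1, an activator that is also a target of the pathway, had a single probe set. It read 7.68, 7.69 and 7.79 in AC29 and 5.91, 6.36 and 6.31 in AB1, with no overlap between the lines. The fold of mean log2 values was 2.89 (7.72 ± 0.06 in AC29 and 6.19 ± 0.25 in AB1, SD, n = 3 each). In AB1 Gli1 was at the floor, above it on 2 arrays and under it on 1, and the AC29 values passed that set's 99th percentile by less than 1 unit.

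Gli3, the family member that mostly acts as a repressor, read 8.71, 8.61 and 8.75 in AC29 and 9.01, 9.28 and 9.12 in AB1. It was well above the floor in both lines and 1.36-fold higher in AB1 (8.69 ± 0.07 in AC29 and 9.14 ± 0.13 in AB1, SD, n = 3 each). Its other probe sets differed by -0.47 and -0.18 on the log2 scale, AC29 minus AB1. The 3 Gli genes therefore did not move together between the lines: Gli1 and Gli2 were higher in AC29 and Gli3 was not. These are transcript levels, and activator and repressor forms of the proteins were not measured.

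Ptch1, the receptor and a target of the pathway, was expressed in both lines and higher in AC29. It read 10.77, 10.19 and 10.57 in AC29 and 8.39, 8.65 and 8.37 in AB1, a fold of 4.10 (10.51 ± 0.30 in AC29 and 8.47 ± 0.15 in AB1, SD, n = 3 each). A second probe set above the floor went the same way by 1.99-fold, with 7.53, 7.22 and 7.77 in AC29 and 6.59, 6.39 and 6.56 in AB1. The third was under the floor on all arrays. The size of the Ptch1 difference thus depended on the probe set, while its direction did not.

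Hhip, a membrane protein that binds and sequesters the ligands, was under the floor in AC29 and in AB1. Its brightest probe set read 4.48, 4.94 and 4.51 in AC29 and 4.63, 4.46 and 4.69 in AB1, with overlapping arrays, and its 3 other probe sets were also under the floor on every array. Of the 3 genes most used as pathway targets, Gli1 and Ptch1 were therefore higher in AC29 and Hhip was not measurable.

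Smo and Sufu both stayed within 2-fold between the lines. Smo, the transducer, read 10.24, 10.22 and 10.31 in AC29 and 9.67, 9.82 and 9.69 in AB1, a fold of 1.44 (10.26 ± 0.05 in AC29 and 9.73 ± 0.08 in AB1, SD, n = 3 each). Its other probe set above the floor was 1.60-fold higher in AC29. Sufu, which binds Gli proteins and keeps them inactive, read 7.67, 7.39 and 7.64 in AC29 and 7.75, 7.93 and 7.67 in AB1. The lowest AB1 array and the highest AC29 array for Sufu were separated by less than 0.01, and the fold toward AB1 was 1.16; a second Sufu probe set had overlapping arrays.

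**Figure D3:**
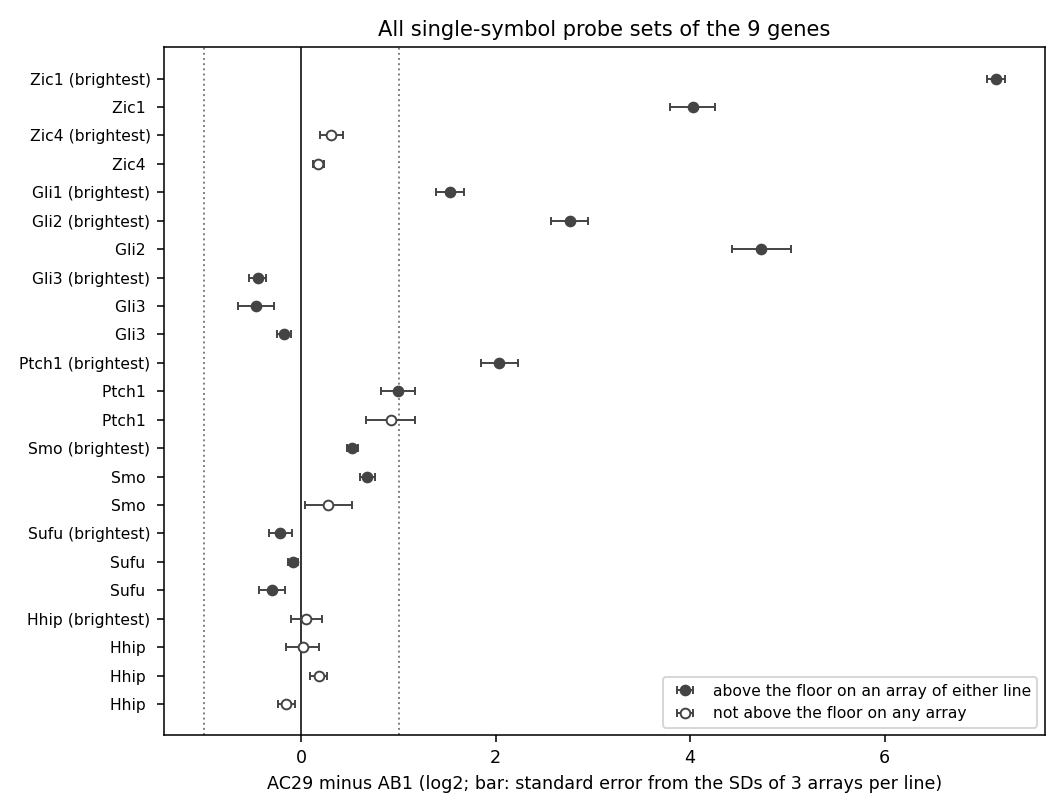
Difference of mean log2 values, AC29 minus AB1 (horizontal axis), for all 23 single-symbol probe sets of the 9 genes; bars are standard errors from the SDs of 3 arrays per line, filled points were above the floor in either line and dotted lines mark 2-fold. Both Zic1 and both Gli2 probe sets lie beyond 2-fold toward AC29, the 3 Ptch1 probe sets lie between 0.92 and 2.04, and those of Gli3 and Sufu lie between -0.47 and -0.09.

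Without AC29 replicate 14 the differences, AC29 minus AB1, were 7.20 for Zic1, 1.54 for Gli1, 2.94 for Gli2 and 2.20 for Ptch1, compared with 7.15, 1.53, 2.76 and 2.04 on all arrays. That array was the lowest of AC29 for 3 of these 4 genes, and for 50.5% of all genes past the size rule toward AC29.

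Pathway genes outside the 9 were described by lists of 100 genes, of which 93 were measured. The lists were chosen with earlier results of these data known, so their shares beside those of all genes are a description only. By the call rule, 8 were higher in AC29 and 9 in AB1, that is 8.6% toward AC29 and 9.68% toward AB1, beside 5.12% and 5.82% of all genes in the same directions. The median difference over the 93 genes was -0.04 and that over all genes -0.0047. Called genes had adjusted p-values of at most 0.00108 in limma.

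In the list of ligands, their release and their receptors, 3 of 14 measured genes were called toward AC29, 1 toward AB1, and 10 failed the rule (median difference 0.14). Cdon, a co-receptor that binds the ligand beside Ptch1, read 10.30, 9.82 and 10.05 in AC29 and 6.44, 6.63 and 6.35 in AB1, higher by 3.59 on the log2 scale (adjusted p = 4.41e-08); a dimmer Cdon probe set was higher by 1.60-fold. Lrp2, the endocytic receptor megalin, which takes up Shh among many other ligands, read 8.93, 9.27 and 8.81 in AC29 and 4.02, 3.61 and 3.90 in AB1, at least 7.64-fold (adjusted p = 9e-09). Disp1, which releases the lipid-modified ligand from the cell that makes it, was 2.80-fold higher in AC29 (9.13 ± 0.06 in AC29 and 7.64 ± 0.05 in AB1, SD, n = 3 each, adjusted p = 6.90e-07). Hhat, the enzyme that attaches palmitate to the ligands, was 3.18-fold higher in AB1 (6.24 ± 0.38 in AC29 and 7.91 ± 0.24 in AB1, adjusted p = 8.97e-05).

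The other co-receptors stayed within 2-fold. Gas1 read 11.76 ± 0.22 in AC29 and 11.17 ± 0.08 in AB1 (SD, n = 3 each, adjusted p = 0.00325), and Boc 6.62 ± 0.04 in AC29 and 7.56 ± 0.11 in AB1 (adjusted p = 2.45e-05). Of the co-receptors Cdon, Gas1 and Boc, only Cdon passed the call rule. Ligand transcripts read low. Shh read 6.32, 6.39 and 6.67 in AC29 and 5.93, 6.22 and 5.82 in AB1 (adjusted p = 0.0179, under the 2-fold minimum). Dhh read 5.62, 6.12 and 6.00 in AC29 and 6.96, 6.77 and 6.73 in AB1 (adjusted p = 0.000512, under the minimum). The fold of mean log2 values toward AB1 was 1.87 for Dhh, which was above the floor on all 3 AB1 arrays but only 1 AC29 array of 3. Shh was above the floor on all 3 AC29 arrays and on 1 AB1 array. Ihh was under the floor on all arrays. No array read any of the 3 ligands above 7.23, the 99th percentile given earlier.

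Among the 29 measured genes of signal transduction, 1 was called toward AC29, 4 toward AB1, and 24 failed the rule (median difference -0.05). Dyrk2, a kinase reported to mark Gli2 for degradation, read 8.53, 8.09 and 8.56 in AC29 and 10.45, 10.58 and 10.46 in AB1, 4.31-fold (adjusted p = 1.47e-06). Gpr161, a ciliary receptor that favours the repressor form of Gli3, was 2.51-fold higher in AB1 (6.64 ± 0.11 in AC29 and 7.97 ± 0.13 in AB1, SD, n = 3 each, adjusted p = 6.47e-06), and Rab23, a small GTPase that restrains the pathway in the neural tube, 2.36-fold (8.23 ± 0.02 in AC29 and 9.46 ± 0.04 in AB1, adjusted p = 1.81e-06). Dlg5, a scaffold that binds Smo, was 2.22-fold higher in AB1 (adjusted p = 7.58e-05). Mtss1, an actin-binding protein reported to act with Gli, was 2.27-fold higher in AC29 (10.63 ± 0.08 in AC29 and 9.45 ± 0.12 in AB1, adjusted p = 7.78e-06).

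The brightest genes of this list that did not pass were the protein kinase A subunit Prkar1a, at 12.50 ± 0.20 in AC29 and 12.06 ± 0.04 in AB1, and the kinase Csnk1a1, at 12.34 ± 0.10 in AC29 and 12.22 ± 0.03 in AB1 (SD, n = 3 each); both are linked to the processing of Gli proteins. With all probe sets of a gene averaged, Gpr161 (-0.72), Mtss1 (0.87) and Dlg5 (-0.58) fell under the 2-fold minimum, and 1 of the other Dlg5 probe sets above the floor differed by 0.17 with overlapping arrays.

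Genes of the primary cilium, the organelle in which Smo acts, were rarely called, as were genes in general. Of 25 measured, 0 were higher in AC29 and 1 was higher in AB1 by the call rule in limma, with the same counts under trend and robust settings; at an unadjusted p under 0.05 and no minimum difference, 5 were higher in AC29 and 8 in AB1, beside 22.3% and 22.9% of all genes. The call rule failed for 24 of the 25, and for 16202 of all 18193 genes. The median difference was -0.08. The called gene was Ofd1, a basal body protein, at 6.07 ± 0.39 in AC29 and 7.08 ± 0.05 in AB1 (SD, n = 3 each, adjusted p = 0.00108), with 2 of 3 AC29 arrays above the floor and a difference of -1.02. It fell under the 2-fold minimum without AC29 replicate 15 (-0.81) or AB1 replicate 5 (-0.99). The brightest cilium genes not called were Kifap3, a kinesin-associated protein, at 8.98 ± 0.09 in AC29 and 9.02 ± 0.13 in AB1, and Ift52, an intraflagellar transport protein, at 8.75 ± 0.05 in AC29 and 9.11 ± 0.05 in AB1.

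Among 20 measured genes known to respond to Hedgehog in some tissue, 3 were called toward AC29, 2 toward AB1, and 15 failed the rule (median difference -0.02). Foxa2, a forkhead factor of the floor plate and endoderm, read 8.23, 8.42 and 8.32 in AC29 and 5.03, 5.09 and 5.08 in AB1, at least 4.76-fold (adjusted p = 5.59e-09). Bmp4, a bone morphogenetic protein, read 9.80, 9.63 and 9.70 in AC29 and 7.21, 7.58 and 7.19 in AB1, 5.22-fold (adjusted p = 3.65e-07), and Tgfb2 was at least 16.9-fold higher in AC29. In the other direction, the forkhead factor Foxc2 was at least 21.1-fold higher in AB1, and the survival gene Bcl2 2.32-fold (6.87 ± 0.30 in AC29 and 8.09 ± 0.07 in AB1, SD, n = 3 each, adjusted p = 0.000107), though with its probe sets averaged the difference (-0.54) was under 2-fold. The cyclins Ccnd1, at 11.33 ± 0.13 in AC29 and 12.07 ± 0.05 in AB1, and Ccnd2, at 11.66 ± 0.05 in AC29 and 11.51 ± 0.04 in AB1, did not pass. Many of these genes also answer to other pathways.

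The other Zic genes were at background. Zic2 read 3.46 ± 0.23 in AC29 and 3.31 ± 0.10 in AB1, and Zic5 5.16 ± 0.09 in AC29 and 5.73 ± 0.06 in AB1 (SD, n = 3 each), none above the floor on any array. Of the Glis genes, which encode relatives of the Gli and Zic factors, Glis2 was 2.63-fold higher in AC29, with 10.10, 9.87 and 10.06 against 8.63, 8.61 and 8.61 in AB1 (adjusted p = 2.12e-06). A dimmer Glis2 probe set was 1.81-fold higher in AC29 (8.41 ± 0.23 in AC29 and 7.55 ± 0.10 in AB1), which is under the 2-fold minimum. Glis3, known from pancreas, thyroid and kidney, went the other way, with 3.75, 3.99 and 3.96 in AC29 and 7.65, 8.09 and 7.73 in AB1, at least 3.37-fold higher in AB1 (adjusted p = 2.21e-08). Glis1 was at 7.08 ± 0.15 in AC29 and 7.18 ± 0.10 in AB1 and did not pass. Among the Gli, Zic and Glis genes, Zic1, Gli1, Gli2 and Glis2 were thus at least 2-fold higher in AC29 on their brightest probe sets, and Glis3 in AB1.

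**Figure D4:**
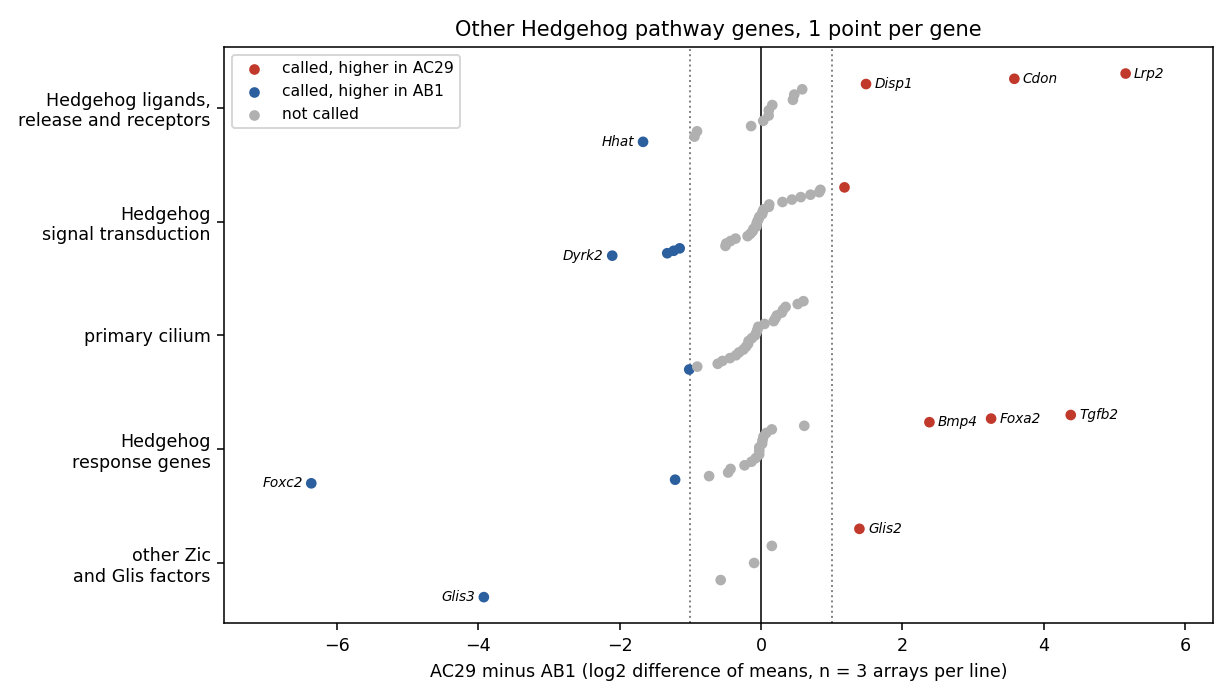
Difference of mean log2 values, AC29 minus AB1 (horizontal axis, n = 3 arrays per line), for 93 other pathway genes in 5 lists, 1 point per gene; red points were called higher in AC29, blue points higher in AB1, and dotted lines mark 2-fold. Lrp2, Tgfb2, Cdon and Foxa2 lie farthest toward AC29 and Foxc2 and Glis3 farthest toward AB1, while the cilium genes lie between -1.02 (Ofd1) and 0.60.

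Genes whose values over the 6 arrays ran closest to a member were found by the root mean square distance between centred log2 values. For Zic1 they were the transcriptional cofactor Vgll3 (distance 0.16), the uroplakin Upk3b (0.17) and the keratin Krt8 (0.17). For Gli2 they were the peroxisomal oxidase Acox2 (0.05), the polarity protein Pard6b (0.07) and the collagen chain Col6a1 (0.08). For Ptch1 they were Ampd3 (0.05), Ehbp1 (0.09) and Abhd3 (0.09), and for Gli1 AU020206 (0.09), Snx8 (0.09) and Syt9 (0.09); Abhd3 and Syt9 were under the floor on every array. Upk3b and Krt8 are also on the list of mesothelial markers. With 3 arrays in each of 2 lines, the distance rests mainly on how equal the differences between the lines are.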

How the data were processed

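Total RNA (5 ug) of AC29 and AB1 cells was labelled as biotinylated cRNA and hybridised to Affymetrix arrays, per the labels' protocols. The deposited table holds 1 log2 value per probe set and array, 45101 in all. RMA, GCOS and Partek 6.4 are listed in the submitters' processing notes, without saying what each did; the log2 scale was taken from the range of the values. RMA compresses differences of dim probe sets. Genome build and scan dates are not given in the sources used here, and no batch could be tested; the number of arrays limits the precision.

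After leaving out 64 control probe sets, 34945 probe sets had 1 gene symbol in the platform's annotation, 932 several and 9160 none. A gene was read from its brightest single-symbol probe set, giving 18193 genes. A model with line as its term was fitted to all probe sets in R 4.3.3 by limma 3.58.1 (eBayes after lmFit, 2-sided tests), with Benjamini-Hochberg adjustment over all genes; a call needed an adjusted p under 0.05 and a log2 difference of at least 1, AC29 minus AB1. The fit was tested on simulated data. The 9 genes, the lists and the naming rule were chosen with earlier results of these data known. All 9 were named, with every called gene of a list up to 5 per direction, its 2 brightest genes not called, all ligands, Zic and Glis genes, the 3 genes most alike to each member past the size rule, and the neighbours of Zic1 and Zic4. Of the listed genes, 7 had no single-symbol probe set in the table used here. Alternatives were quantile normalization, median centring, other probe set choices, a filter on dim genes, other eBayes settings, other thresholds and leaving out each array.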

Additional observations from a re-analysis of the deposited data

How the results depend on the processing

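The counts of called genes kept within 1.5 times under quantile normalization, median centring, averaging all probe sets of a gene, leaving out _x_at and _s_at probe sets, a filter at the floor, and eBayes with trend and robust settings. The genes behind these counts were not all the same. With probe sets averaged, Gpr161, Mtss1, Dlg5 and Bcl2 were no longer called. Glis3 was not tested under the filter at the floor. With an adjusted p under 0.05 alone, 3475 genes were called toward AC29 and 3630 toward AB1, and of the other Hedgehog pathway genes 22 and 25. Leaving out each array in turn gave 897 to 986 genes higher in AC29 and 1024 to 1095 higher in AB1, 8 to 8 and 8 to 10 among the pathway genes, and 4 to 4 and 0 to 0 among the 9 genes. With a 4-fold minimum 3 of the 9 genes were higher in AC29, without Gli1. Ptch1 passed this minimum narrowly, with a log2 difference of 2.04. It fell under the minimum without AC29 replicate 13 (1.91), AB1 replicate 4 (1.998) or AB1 replicate 6 (1.99). Over 11 alternatives each, the difference ranged from 5.59 to 7.20 for Zic1, 1.39 to 1.61 for Gli1, 2.64 to 4.73 for Gli2 and 1.32 to 2.20 for Ptch1. The highest for Gli2 came without _s_at probe sets, and the lowest for Zic1 and Ptch1 on the mean of the probe sets, which brings in dimmer ones. With the floor at the 99th percentile the folds toward AC29 were at least 8.14 for Zic1, 2.33 for Gli2 and 1.41 for Gli1, and with the 90th at least 23.7 for Zic1 and 6.78 for Gli2. No paired analysis was possible because the AC29 and AB1 arrays share no replicate number. Background correction and scan batch were not run, since only summarised values were used here.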
